A study of Mus musculus with 12 samples.

Results

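The aldehyde oxidases Aox1, Aox3 and Aox4 and the related enzyme xanthine dehydrogenase (Xdh) were examined in the testis of wild-type mice and of mice lacking Sohlh1 or Sohlh2. The members were every probe set annotated to exactly 1 of these 4 genes. There were 4 such probe sets, 1 per gene, among 18193 genes named by 34945 probe sets with a single symbol, of 45037 that were not controls. Aox4 was chosen on measured values, as one of the largest rises without overlap with wild type in both knockouts. Its differences from wild type are therefore described without a test. Aox1, Aox3 and Xdh were taken in by family, whatever their values.

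The study measured total RNA of whole testes on 12 Affymetrix mouse arrays, in 3 groups of 4. The groups were wild type, Sohlh1-/- and Sohlh2-/-, all on the strain background given as C57BL/6, 129S5, SvEvBrd hybrid and all at postnatal day 7. Each array carried RNA pooled from 3 testes of different animals. Neither the strategy that produced the null alleles nor any treatment is given in the labels. P-values below measure the spread between such pools. In whole testis, fewer cells of a type and less RNA per cell cannot be told apart.

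Aldehyde oxidases and xanthine dehydrogenase form a family of large enzymes that carry iron-sulfur clusters, FAD and a molybdenum cofactor. Aldehyde oxidases oxidise aldehydes, retinaldehyde among them, and many nitrogen-containing rings, while xanthine dehydrogenase turns hypoxanthine into xanthine and then into urate at the end of purine breakdown. The mouse aldehyde oxidase genes lie side by side in a cluster that arose by gene duplication. Sohlh1 and Sohlh2 are helix-loop-helix transcription factors of spermatogonia that are needed for their differentiation, and factors of this class bind short DNA motifs called E-boxes. Retinoic acid, which is made from retinaldehyde, drives spermatogonia to differentiate.

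The promoters of the 3 aldehyde oxidases are shown because the genes are neighbours while their signals differed between genotypes to unlike degrees. Sequences are from RefSeq, build GRCm38.p6, plus strand, 5' to 3', and cover the 250 bases before each annotated start. Capitals mark E-boxes, searched as CANNTG, which reads the same on both strands. The windows are chr1:58210147-58210396 for Aox4, chr1:58029719-58029968 for Aox1 and chr1:58112886-58113135 for Aox3.
Aox4: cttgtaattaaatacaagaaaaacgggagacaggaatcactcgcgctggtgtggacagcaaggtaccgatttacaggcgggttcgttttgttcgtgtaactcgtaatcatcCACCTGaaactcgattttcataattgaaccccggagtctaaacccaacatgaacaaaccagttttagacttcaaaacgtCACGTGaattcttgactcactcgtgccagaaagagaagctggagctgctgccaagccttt
Aox1: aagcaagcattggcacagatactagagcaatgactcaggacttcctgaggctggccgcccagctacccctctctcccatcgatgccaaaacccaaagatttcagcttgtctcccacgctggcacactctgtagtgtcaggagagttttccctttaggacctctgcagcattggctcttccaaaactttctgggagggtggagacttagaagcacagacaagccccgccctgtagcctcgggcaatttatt
Aox3: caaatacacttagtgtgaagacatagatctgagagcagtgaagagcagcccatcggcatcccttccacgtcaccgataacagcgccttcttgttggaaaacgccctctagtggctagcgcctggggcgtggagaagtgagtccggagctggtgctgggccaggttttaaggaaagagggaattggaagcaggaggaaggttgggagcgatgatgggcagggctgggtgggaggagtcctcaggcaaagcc
The search covered these bases and the first 50 from the start on, 300 in all. The Aox4 window held 2 E-boxes, CACCTG beginning 139 bases before the start and CACGTG beginning 60 bases before it. The Aox1 and Aox3 windows held 0. Among 32851 promoter windows of the same length, 72.3% held at least 1 E-box, 39.6% held 2 or more and 27.7% held 0. The CACGTG form, which is contained in the wider motif, was present in 7.15% of windows. CAGCTG, another E-box form, occurred in 16.3% of windows and in none of these 3. The G and C content of the whole window was 47.0% for Aox4, 54.3% for Aox1 and 55.0% for Aox3. A match describes letters in a window and does not show that a factor binds there.

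The targeted genes were checked first. Sohlh1 averaged 1174 ± 50.9 (SD, n = 4) in wild type. Sohlh1 knockout arrays 2, 3 and 4 read 104, 61.0 and 50.2 for it, whereas the one labelled Sohlh1 knockout 5 read 595. Sohlh2 averaged 1050 ± 134 (SD, n = 4) in wild type. Sohlh2 knockout arrays 3-1, 4 and 5 read 157, 93.6 and 73.2, whereas the one labelled Sohlh2 knockout 1 read 1847. On these 2 arrays the other targeted gene was low: the former read 94.4 for Sohlh2 and the latter 126 for Sohlh1. The 595 lay near the 465 to 563 for Sohlh1 on Sohlh2 knockout arrays 3-1, 4 and 5. The 1847 lay near the 1556 to 1783 for Sohlh2 on Sohlh1 knockout arrays 2, 3 and 4. For the targeted genes each of the 2 arrays thus read like the other knockout. Both arrays therefore went against their labels, which were kept in the group means and the main fit. Differences from wild type of Aox4, Aox1, Xdh and most named genes that passed are given with and without these arrays. Aox3 is given array by array. The ratio of the 3' to the 5' Gapdh control was 1.17 on the array labelled Sohlh1 knockout 2 and 1.63 on the array labelled Sohlh2 knockout 1, against 0.744 to 0.818 on the other arrays. Array medians were 76.6 to 90.7. Between 26469 and 28348 probe sets per array exceeded 48.6, the level that a probe set had to pass on at least 4 arrays to be tested.

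**Figure D1:**
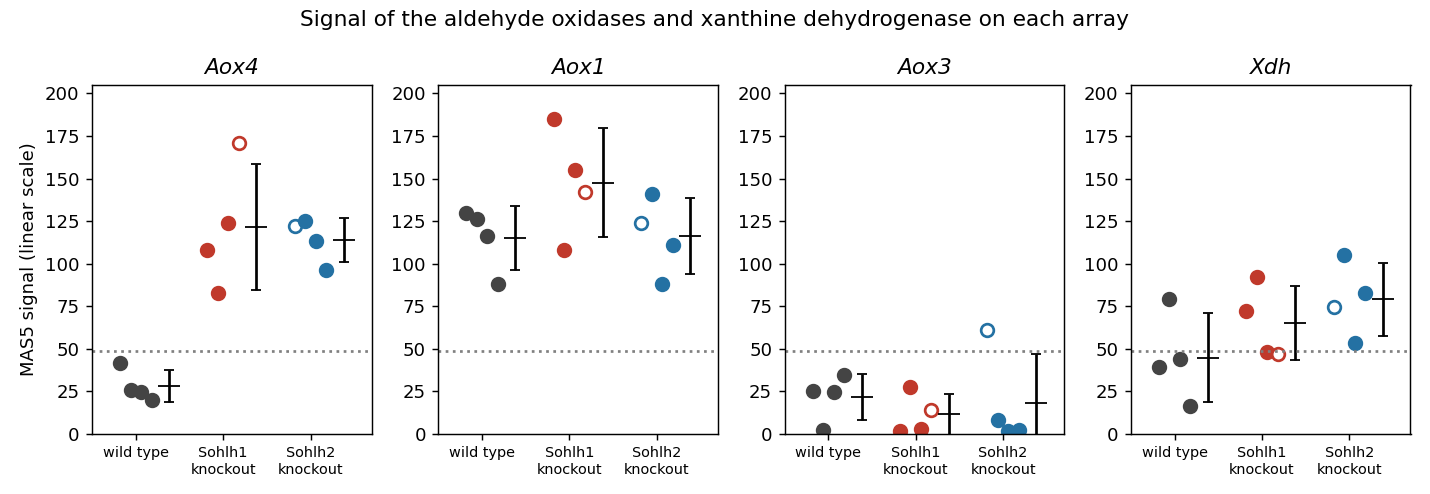
MAS5 signal (linear scale) of Aox4, Aox1, Aox3 and Xdh on each of the 12 arrays, by group; points are arrays, bars are the mean and SD of 4 arrays, open points are the arrays labelled Sohlh1 knockout 5 and Sohlh2 knockout 1, and the dotted line is the filter value of 48.6. Aox4 lay between 82.7 and 171 on the 8 knockout arrays and between 19.8 and 41.6 in wild type, while the groups overlapped for the other genes.

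Aox4 encodes an aldehyde oxidase known from the Harderian gland and skin. Its signal on wild-type arrays 3, 4, 5 and 6 was 41.6, 25.8, 24.5 and 19.8. It was 108, 82.7, 124 and 171 in the pools labelled Sohlh1 knockout 2, 3, 4 and 5. It was 122, 125, 113 and 96.2 in those labelled Sohlh2 knockout 1, 3-1, 4 and 5. Every wild-type array lay under the filter value and each of the 8 knockout arrays lay above it, with no overlap between wild type and either knockout. Absence of overlap was a condition of the choice of Aox4, so this separation is a description only. Since the gene passed the filter only through the knockout arrays, its wild-type level is close to the dim end of the array.

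The mean Aox4 signal was 28.0 ± 9.47 (SD, n = 4) in wild type, 121 ± 37.1 (SD, n = 4) in Sohlh1 knockout and 114 ± 13.0 (SD, n = 4) in Sohlh2 knockout. No ratio is given, because no wild-type array reached the filter value. On the scale of log2(signal + 14.2), which draws differences of dim genes towards 0, the difference was 1.67 (SE 0.24) in Sohlh1 knockout and 1.63 (SE 0.24) in Sohlh2 knockout. With no offset it was 2.13 and 2.08, and with a larger offset, at the 40th percentile of all values, 1.13 and 1.09. Both comparisons share the wild-type arrays and are not independent. As a restatement of how it was chosen, Aox4 was placed in order of size among ranked rises. These had a limma adjusted p under 0.05 with 1 probe set per gene and no overlap with wild-type arrays. They numbered 228 genes in Sohlh1 knockout and 212 in Sohlh2 knockout. In Sohlh1 knockout Aox4 stood between Hdgfl1 at 1.82 and Npy at 1.63. In Sohlh2 knockout it stood between Tbx4 at 1.63 and Mmp9 at 1.62.

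The Aox4 difference was of similar size without the arrays that stood apart. The 2 arrays with targeted genes against the label read 171 and 122, and the 2 with the high 3' to 5' ratio read 108 and 122. Without the arrays that went against their labels the difference was 1.51 in Sohlh1 knockout and 1.60 in Sohlh2 knockout, and with Sohlh1 knockout 2 left out in addition it was 1.48 and 1.60. Leaving out single arrays gave 1.51 to 1.82 in Sohlh1 knockout and 1.53 to 1.77 in Sohlh2 knockout.

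Between the knockouts Aox4 differed by -0.046 (SE 0.24), Sohlh2 knockout minus Sohlh1 knockout, and by 0.086 without the arrays that went against their labels. The arrays of the 2 knockouts interleaved. Choosing a gene that is high in both knockouts favours a small difference between them, so this value too is a description with no test.

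**Figure D2:**
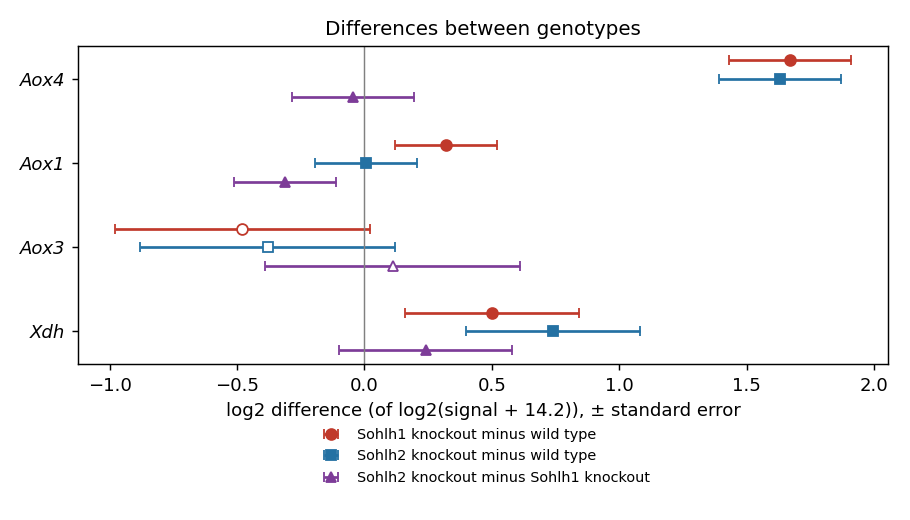
Differences in log2(signal + 14.2) between genotypes for the 4 genes, with standard errors from the limma fit of 12 arrays; circles are Sohlh1 knockout minus wild type, squares Sohlh2 knockout minus wild type, triangles Sohlh2 knockout minus Sohlh1 knockout, and open symbols mark Aox3, which was not tested. Aox4 lies at 1.67 and 1.63 against wild type and at -0.046 between knockouts, and the other genes lie between -0.48 and 0.74.

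Aox1, the best studied aldehyde oxidase and abundant in liver, was above the filter value on all 12 arrays. Its signal was 130, 126, 116 and 88.1 on wild-type arrays 3, 4, 5 and 6. Sohlh1 knockout read 185, 108, 155 and 142 and Sohlh2 knockout 124, 141, 88.0 and 111, in the array order used for Aox4. The groups overlapped throughout, the highest reading being on the array labelled Sohlh1 knockout 2. The means were 115 ± 18.9, 148 ± 31.9 and 116 ± 22.2 (SD, n = 4 each). The log2 difference from wild type was 0.32 (95% interval -0.12 to 0.75; limma adjusted p = 0.497) in Sohlh1 knockout and 0.0075 (-0.43 to 0.44; limma adjusted p = 0.991) in Sohlh2 knockout. Neither passed the test, and neither did the difference between knockouts of -0.31 (-0.75 to 0.13; limma adjusted p = 1). Without the arrays that went against their labels the differences from wild type were 0.33 and -0.027, and the Sohlh1 knockout value was 0.21 without wild-type array 6 and 0.21 without the array labelled Sohlh1 knockout 2. Between the knockouts, with the labels kept, 0 of 28694 probe sets (0%) passed limma's adjusted threshold, and 767 had an unadjusted p under 0.05. Without the arrays that went against their labels 9 passed, and Aox1 differed by -0.35 between knockouts (limma adjusted p = 0.793).

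Aox3, the neighbour of Aox1 and the other main liver form in mice, was at the bottom of the range. Its signal was 25.4, 2.42, 24.3 and 34.7 in wild type, 1.89, 27.7, 2.86 and 14.0 on the Sohlh1 knockout arrays and 60.7, 8.24, 1.60 and 2.22 on the Sohlh2 knockout arrays, in the array order used above. Only the array labelled Sohlh2 knockout 1 passed 48.6, so Aox3 was not tested. The means were 21.7 ± 13.7, 11.6 ± 12.1 and 18.2 ± 28.5 (SD, n = 4 each), with SDs of 63%, 104% and 157% of the mean. The Sohlh2 knockout mean rests largely on the 60.7 of the array labelled Sohlh2 knockout 1, which went against its label. Aox2, the remaining member of the cluster, is not analysed here.

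Xdh was dim in wild type and variable. Its signal was 39.2, 79.3, 44.0 and 16.3 on wild-type arrays 3, 4, 5 and 6. On the Sohlh1 knockout arrays it was 72.4, 92.3, 48.3 and 46.7, and on the Sohlh2 knockout arrays 74.6, 105, 53.2 and 82.9. Wild-type array 4 lay among the knockout arrays and wild-type array 6 was the lowest of all. The mean was 44.7 ± 26.0 in wild type, 65.0 ± 21.7 in Sohlh1 knockout and 78.9 ± 21.3 in Sohlh2 knockout (SD, n = 4 each). The log2 difference was 0.50 (95% interval -0.22 to 1.22; limma adjusted p = 0.522) in Sohlh1 knockout. In Sohlh2 knockout it was 0.74 (0.02 to 1.46, limma unadjusted p = 0.0441 and adjusted p = 0.352). Of 12 arrays 7 were above the filter value: 1 of wild type, 2 of Sohlh1 knockout and 4 of Sohlh2 knockout. The gene was therefore tested because of its knockout arrays, where it was higher, which limits the reading of the unadjusted p. Xdh thus did not pass the test in either knockout, and the difference between knockouts was 0.24 (-0.48 to 0.96; limma adjusted p = 1). Without the arrays that went against their labels the differences from wild type were 0.61 and 0.75 (limma adjusted p = 0.417 and 0.442). The difference between knockouts was then 0.14 (limma adjusted p = 0.951).

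Of the 3 members that were tested, 1 passed the adjusted threshold in each knockout contrast, the gene chosen for that. Over all probe sets 2.09% passed in Sohlh1 knockout, 0.707% upward and 1.38% downward, and 1.55% passed in Sohlh2 knockout, 0.606% upward and 0.944% downward. No reading is made from the members' count because the choice used those contrasts.

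Among genes that build the molybdenum cofactor and fit it into enzymes, 1 of 5 tested (6 listed) passed in Sohlh1 knockout and 0 in Sohlh2 knockout. Nfs1, the cysteine desulfurase that supplies sulfur for iron-sulfur clusters and the cofactor, rose from 1015 ± 57.7 in wild type to 1570 ± 170 in Sohlh1 knockout (log2 difference 0.62, SE 0.12, n = 4 each; limma adjusted p = 0.0141), with no overlap of arrays. In Sohlh2 knockout it was 1409 ± 226 (0.46; limma adjusted p = 0.0724). Without wild-type array 6 the Sohlh1 call was lost (limma adjusted p = 0.0573), and without the arrays that went against their labels the difference was 0.63 (limma adjusted p = 0.00715). The median over the list was 0.0023 and -0.035, beside -0.0027 and -0.0038 for all probe sets tested. Lists hold 1 probe set per gene, and over all genes taken that way the median was 0.033 and 0.022. The same background values apply to the list medians that follow.

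Mocos, named after its values were seen, adds the sulfur atom without which aldehyde oxidases and xanthine dehydrogenase are inactive. Its signal was 82.9, 68.4, 99.1 and 154 in wild type, 39.0, 56.1, 110 and 73.7 on the Sohlh1 knockout arrays and 48.6, 10.2, 64.3 and 92.9 on the Sohlh2 knockout arrays. The groups overlapped and the array labelled Sohlh2 knockout 3-1 was far below the rest. The differences of -0.47 (limma adjusted p = 0.637) and -0.89 (limma adjusted p = 0.366) did not pass the test, and over 25 alternatives they ran from -0.69 to -0.079 and from -1.22 to -0.46 with 0 calls. Of 2 other molybdenum enzymes tested (3 listed), 0 passed: Suox, sulfite oxidase, differed by -0.13 and -0.31 (limma adjusted p = 0.835 and 0.597), and Mtarc2, a mitochondrial amidoxime reductase, by 0.085 and 0.13 (limma adjusted p = 0.796 and 0.699).

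None of 10 tested genes (14 listed) of purine breakdown passed in either knockout, with medians of 0.18 in both. The lowest unadjusted p-values belonged to Nt5c, a nucleotidase, at 0.34 and 0.22 (limma adjusted p = 0.151 and 0.414), and to Urah, which acts after urate, at 0.37 and 0.74 (limma adjusted p = 0.512 and 0.19). Of 4 purine salvage genes 0 passed, with medians of -0.18 and -0.094. Adk, adenosine kinase, stood at 0.44 and 0.34 (limma adjusted p = 0.223 and 0.409), and Aprt, adenine phosphoribosyltransferase, at -0.26 and -0.28 (limma adjusted p = 0.287 and 0.273). The first value in each pair is Sohlh1 knockout and the second Sohlh2 knockout.

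Aldehyde dehydrogenases, another route of aldehyde oxidation, and retinol and retinaldehyde dehydrogenases were likewise without calls. All 20 aldehyde dehydrogenases listed were tested and 0 passed, with medians of 0.14 and 0.11 and a range of -0.78 to 0.41. Aldh7a1, which acts in lysine breakdown, had means of 2073 in wild type, 2336 in Sohlh1 knockout and 2749 in Sohlh2 knockout (0.18 and 0.41; limma adjusted p = 0.488 and 0.0945). Aldh9a1, which acts on aminoaldehydes, had means of 5284, 4322 and 4030 (-0.30 and -0.40; limma adjusted p = 0.252 and 0.127). Of 10 tested retinol and retinaldehyde dehydrogenases (13 listed) 0 passed, with medians of 0.10 in both knockouts. Rdh14, a retinol dehydrogenase, differed by 0.29 and 0.23 (limma adjusted p = 0.163 and 0.308), and Adh7, an alcohol dehydrogenase that accepts retinol, by 0.56 and 0.32 (limma adjusted p = 0.248 and 0.574).

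Aldehyde oxidases also act on forms of nicotinamide and vitamin B6. Of 4 tested genes for these vitamins (6 listed), 2 fell in Sohlh1 knockout and 0 passed in Sohlh2 knockout, with medians of -0.32 and -0.24. The list held differences of both signs: Nnmt, which methylates nicotinamide and is named after its values were seen, stood at 0.63 and 1.13 and did not pass. Nampt, the enzyme that recycles nicotinamide, had a mean of 1692 ± 313 in wild type, 1068 ± 126 in Sohlh1 knockout and 1096 ± 217 in Sohlh2 knockout (-0.65, SE 0.15, and -0.62; limma adjusted p = 0.0433 and 0.0595). Pdxp, a vitamin B6 phosphatase, had means of 632 ± 83.6, 400 ± 58.7 and 433 ± 51.7 (-0.64, SE 0.14, and -0.53; limma adjusted p = 0.0274 and 0.0757). Each call was lost when certain single arrays were left out, with limma adjusted p up to 0.149 for Nampt and 0.101 for Pdxp. For Nampt these were 9 arrays: wild type 4, 5 and 6, every Sohlh1 knockout array and Sohlh2 knockout 3-1 and 4. For Pdxp they were 6: wild type 3, 5 and 6 and Sohlh1 knockout 2, 3 and 4. The Nampt call was also lost with median centring (limma adjusted p = 0.0526), with no filter (0.0564), with eBayes without trend (0.0952), without the arrays that went against their labels (-0.57; 0.0617) and without all 3 arrays that stood apart (0.119). The Pdxp call was also lost with eBayes without trend (limma adjusted p = 0.0516), and was -0.73 (limma adjusted p = 0.00906) without the arrays that went against their labels.

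Aldehyde oxidases and the oxidase form of xanthine dehydrogenase release superoxide and hydrogen peroxide. Of 12 tested enzymes against reactive oxygen (15 listed), 1 fell in each knockout, with list medians of 0.075 and 0.063. It was Sod2, the mitochondrial superoxide dismutase, with a mean of 3560 ± 190 in wild type, 2669 ± 250 in Sohlh1 knockout and 2644 ± 189 in Sohlh2 knockout (-0.42 and -0.43, SE 0.09 each; limma adjusted p = 0.028 and 0.0275). Its wild-type arrays did not overlap with either knockout. The Sod2 calls were lost under median centring (limma adjusted p = 0.104 and 0.0946), with eBayes without trend (0.0766 and 0.0799) and when any of 6 single arrays was left out, with limma adjusted p up to 0.104 and 0.106. The single arrays were wild type 4, 5 and 6 with Sohlh1 knockout 3, 4 and 5 in the first contrast and with Sohlh2 knockout 3-1, 4 and 5 in the second. Without the arrays that went against their labels Sod2 stood at -0.36 and -0.47 (limma adjusted p = 0.0356 and 0.0117).

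**Figure D3:**
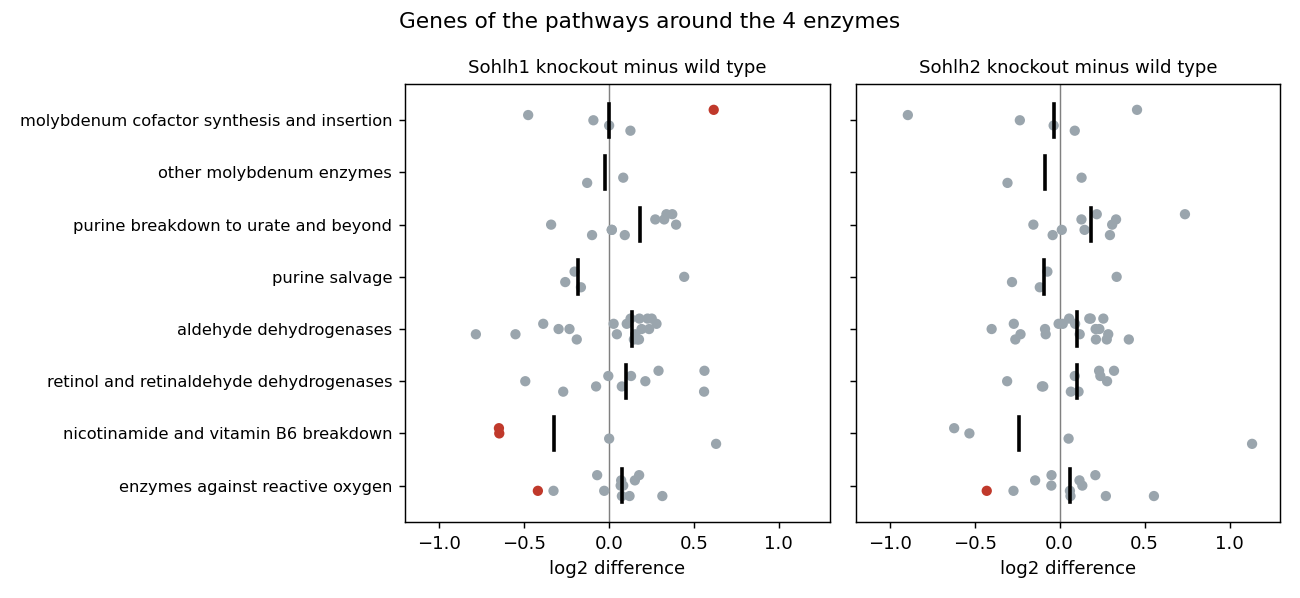
Differences in log2(signal + 14.2) from wild type for the tested genes of each pathway list, Sohlh1 knockout and Sohlh2 knockout in separate panels; each point is a gene, red points passed an adjusted p of 0.05 and the black bar is the list median. The red points are Nfs1, Nampt, Pdxp and Sod2 in Sohlh1 knockout and Sod2 in Sohlh2 knockout.

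Genes on either side of the Aox cluster were then examined beside Aox4. Of the 10 nearest genes tested, 5 per side, 0 rose in either knockout. Differences ranged from -0.36 to 0.14 in Sohlh1 knockout, where 1 fell, and from -0.33 to 0.43 in Sohlh2 knockout, where 0 passed. Bzw1, a translation regulator, had a mean of 10101 ± 1104 in wild type, 7826 ± 169 in Sohlh1 knockout and 7978 ± 307 in Sohlh2 knockout (-0.36, SE 0.08, and -0.33; limma adjusted p = 0.0391 and 0.0627). The Bzw1 call was lost when any of 10 single arrays was left out (all but wild type 3 and Sohlh2 knockout 1), with limma adjusted p up to 0.131. It was also lost with median centring (limma adjusted p = 0.0701), no filter (0.0702), eBayes without trend (0.109) and without all 3 arrays that stood apart (0.0611). Without only the arrays that went against their labels Bzw1 stood at -0.37 (limma adjusted p = 0.0393). Clk1, a splicing kinase, stood highest in Sohlh2 knockout at 0.43 (limma adjusted p = 0.197). Around Xdh, 0 of 10 genes passed in either knockout, with a range of -0.37 to 0.49 in Sohlh1 knockout and -0.24 to 0.40 in Sohlh2 knockout.

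**Figure D4:**
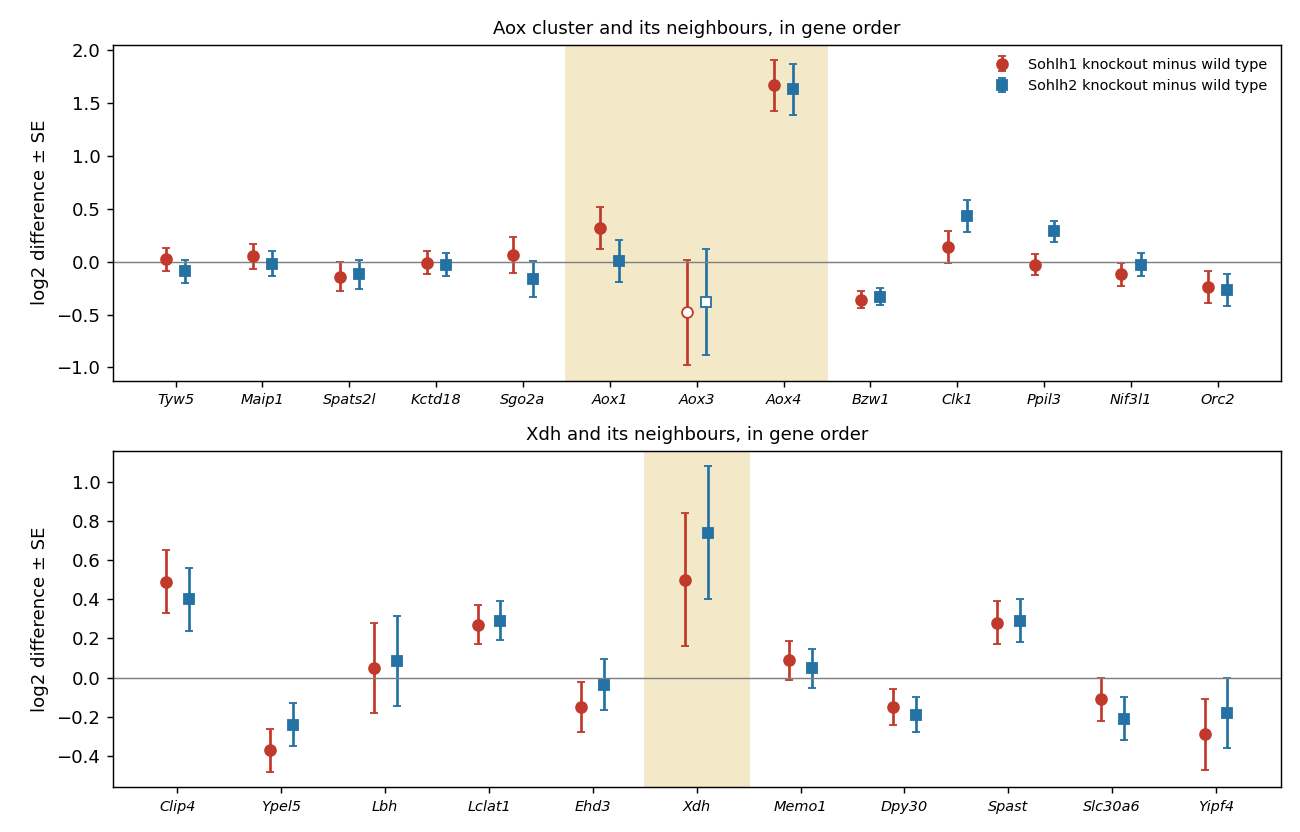
Differences in log2(signal + 14.2) from wild type, with standard errors, for the Aox genes and Xdh (shaded) and the 5 nearest tested genes on each side, in gene order and not to genomic scale; open symbols were not tested. Aox4 stands at 1.67 and 1.63 while the 10 genes around the cluster lie between -0.36 and 0.43.

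Across the 12 arrays the gene whose log2 signal was most like that of Aox4, among 13698 genes compared by Pearson's r, was 1700019A02Rik (r = 0.967). It was followed by Irs4 (0.963), an insulin receptor substrate, Fundc2 (0.961), a mitochondrial membrane protein, Morc1 (0.957), a germ-cell ATPase that acts in transposon silencing, and Cracdl (0.956). These arrays share 3 genotypes, so a high r is given by any gene that is higher in both knockouts. Over the 8 knockout arrays alone r was 0.686, 0.553, 0.867, 0.506 and 0.568 in the same order.

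The signal of 1700019A02Rik was 49.0 ± 12.5 in wild type, 124 ± 27.3 in Sohlh1 knockout and 126 ± 7.20 in Sohlh2 knockout (SD, n = 4 each). Morc1 had means of 1400, 2588 and 2712 and Irs4 of 62.3, 151 and 166. Fundc2 had means of 2510, 3067 and 3039, a log2 difference of 0.29 and 0.28, so its pattern was like that of Aox4 at a smaller size. For Aox1 the most alike genes were Gpm6b (r = 0.932), Kctd5 (0.885) and Ppp2r2d (0.875), and for Xdh Phf21b (0.881), Srgn (0.870) and Sfxn4 (0.868). Over the 10 arrays whose targeted genes matched the label, the Aox1 list was Gpm6b, Fndc3a and Zc4h2. The Xdh list was then Ppm1l, Rhbdl3 and Hsd11b1. Each r is among the highest of 13698 over few arrays, so its size is in part given by the search. Over the 12 arrays no gene was among the most alike of more than 1 of the 3 members. Lists this short out of 13698 genes would seldom share a gene, so nothing is read from this.

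**Figure D5:**
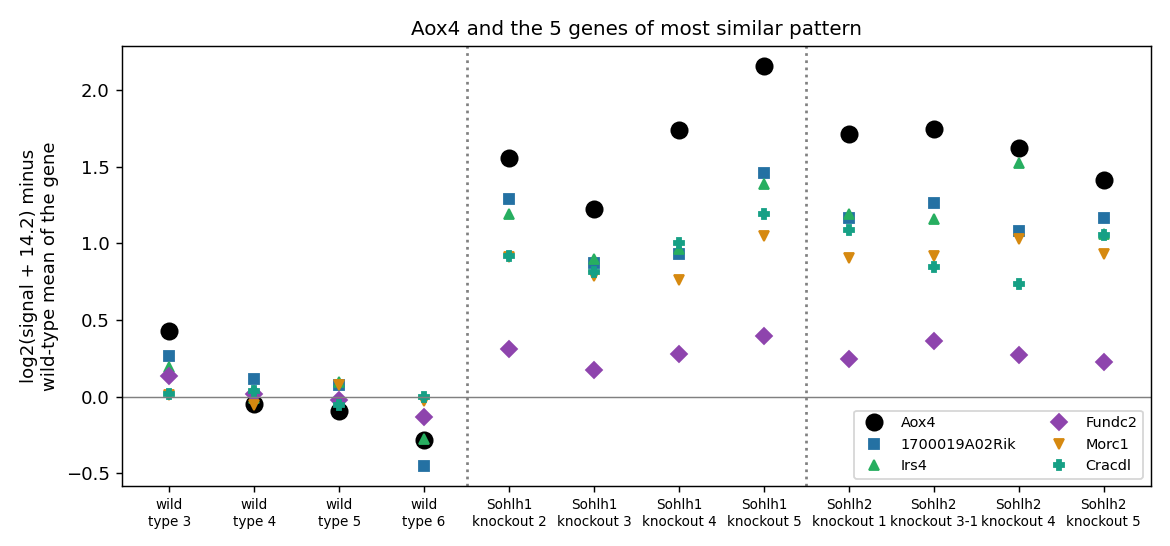
log2(signal + 14.2) minus the gene's wild-type mean on each of the 12 arrays for Aox4 and the 5 genes with the highest Pearson correlation to it. Aox4 is higher on all 8 knockout arrays than on any wild-type array, and Fundc2 (r = 0.961 with Aox4) has smaller differences of 0.29 and 0.28.

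Some cell type markers differed between the same groups as Aox4. The summed signal of 5 measured markers of undifferentiated spermatogonia was 4027 to 4458 in wild type, 4503 to 5894 in Sohlh1 knockout and 4160 to 6267 in Sohlh2 knockout. Gfra1, a receptor for the niche factor GDNF, rose by 0.97 and 1.01 (limma adjusted p = 0.00287 and 0.00261), and Id4, a marker of stem spermatogonia, by 0.82 and 0.81 (limma adjusted p = 0.00356 and 0.00457), 2 of 5 tested. The other 3 did not pass: Ret stood at 0.38 and 0.75, Etv5 at 0.32 and 0.33 and Zbtb16 at -0.18 and -0.23, and the summed signal of Sohlh2 knockout overlapped with wild type. The summed signal of 6 markers of differentiating spermatogonia was 10527 to 13747, 5304 to 6696 and 4980 to 7453. The sums include both targeted genes, so part of the lower sums is given by the genotype. In Sohlh1 knockout 4 fell, Crabp1, Dmrtb1, Kit and the targeted Sohlh1, and in Sohlh2 knockout 3 fell, Crabp1, Dmrtb1 and Kit. Crabp1 stood at -2.47 and -2.22 and Dmrtb1 at -2.51 and -2.21, and their calls were kept under all 25 alternatives. Kit, the receptor of differentiating spermatogonia, fell, with log2 differences of -1.92 and -1.95 (limma adjusted p = 1.94e-05 and 1.61e-05). Stra8, also on that list, stood at -0.46 and -0.38 and did not pass. With the labels kept, the targeted Sohlh2 did not pass either, at -0.33 and -2.18 (limma adjusted p = 0.904 and 0.309). Sohlh1 in Sohlh2 knockout stood at -1.66 (limma adjusted p = 0.202) with no overlap with wild type. Without the arrays that went against their labels Gfra1 stood at 0.93 and 1.05, Id4 at 0.81 and 0.92 and Kit at -1.97 and -1.89, all past the threshold. The part of these cells in the Aox4 difference was not tested.

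Among markers of somatic cells 0 passed in either knockout. The summed signal of 7 Sertoli cell markers was 22757 to 25725 in wild type, 26330 to 28006 in Sohlh1 knockout and 23334 to 26191 in Sohlh2 knockout, so that the Sohlh1 knockout arrays lay above wild type while the Sohlh2 knockout arrays overlapped with it. These sums lean on Inha, the brightest marker, with means of 12824, 14529 and 13098. In Sohlh1 knockout the log2 differences of the 7 markers ran from -0.04 to 0.25. Leydig, peritubular, endothelial and macrophage lists overlapped between groups. General germ cell markers summed to 26233 to 30227, 24383 to 28155 and 25518 to 29532, and Dppa4 alone of 6 passed, upward, in both knockouts. Dppa4 stood at 1.33 and 1.32, and its calls were kept under all 25 alternatives. Every measured germ cell and Sertoli cell marker had a mean above 48.6 in each group, the check made of the testis label.

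Tissues known for aldehyde oxidases were also looked at. All 4 measured liver markers had means under 48.6 in every group, Alb and Ttr among them. Of 6 markers of epidermis and sebaceous gland, Krt14 and Krt15 were under 48.6 in every group. The other 4 were not: Krt10 had means of 448, 522 and 492 in wild type, Sohlh1 knockout and Sohlh2 knockout, Scd3 of 193, 139 and 154, Elovl3 of 65.4, 76.6 and 61.4 and Krt5 of 63.6, 48.6 and 49.7. The summed signal of these 6 was 707 to 876 in wild type, 728 to 913 in Sohlh1 knockout and 729 to 875 in Sohlh2 knockout. Of 4 measured epididymal markers, Lcn5 and Lcn8 were under 48.6 in every group. Spink8 had means of 23.9, 122 and 34.5 and Rnase10 of 54.4, 61.3 and 39.0. Spink8, which was not tested, thus had its highest mean in Sohlh1 knockout. The 4 summed to 65.2 to 164, 136 to 321 and 76.3 to 180. The part of such tissue in the Aox4 difference was not tested. Summed adipose markers were 66.3 to 108, 30.8 to 197 and 26.4 to 88.4, overlapping between groups.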

How the data were processed

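RNA of whole testis, 3 testes per array, was labelled from an oligo(dT) primer, per the labels' protocols, so signals come mostly from 3' ends. The deposited values are linear signal intensities. The submitters' processing notes name MAS5 and GCOS for them. Tool versions, detection calls and a genome build: not given in the sources used here. Groups and replicate numbers came from sample titles.

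Intensity became log2(value + 14.2), the 20th percentile of values over probe sets that are no controls, without further normalization. Of 45037 probe sets, 28694 exceeded 48.6 (the 40th percentile) on at least 4 of 12 arrays and entered a two-sided limma fit (version 3.58.1, R 4.3.3; lmFit, then contrasts.fit, then eBayes(trend)) of genotype alone, with Benjamini-Hochberg adjustment over all 28694. Rose, fell and passed mean an adjusted p under 0.05. The fit was tested on simulated data. Symbols came from the platform annotation: 34945 probe sets had 1 symbol, 932 several and 9160 none, and 34741 matched the RefSeq gene table by Entrez identifier.

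The members and gene lists were chosen with earlier results of these data known. Named were the members, the list genes that passed (at most 4, or the 2 of smallest p), the 5 nearest tested genes per side (values for those at the ends of the range), the 5 genes most like Aox4 and 3 for Aox1 and Xdh. A gene with several probe sets was represented by the brightest. Alternatives changed offset, scaling, filter, probe set choice, variance trend, groups in the fit, replicate block and arrays left out. The number of arrays limits the precision. Figures were drawn with matplotlib 3.10.9.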

Additional observations from a re-analysis of the deposited data

Results flagged for a closer look

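Of 153 groups of 4 arrays examined over 51 probe sets, 11 had an array far from the other 3 of its group, where chance gives about 5 in 100. None concerned Aox1, Aox3, Aox4 or Xdh. Sohlh1 was 126 on the array labelled Sohlh2 knockout 1, against 465 to 563 on the others of that group. Sohlh2 was 94.4 on the array labelled Sohlh1 knockout 5, against 1556 to 1783. Mtarc2 was 4094 on the array labelled Sohlh1 knockout 2, against 2808 to 2945, and Tyw5, a neighbour of the Aox cluster, was 870 there, against 694 to 709. On the array labelled Sohlh2 knockout 1, Adk was 7349 against 4552 to 4933, Aldh9a1 was 5003 against 3649 to 3791, and Orc2, another neighbour of the cluster, was 820 against 1356 to 1413. Adh7 was 57.7 on the array labelled Sohlh1 knockout 5, against 82.7 to 88.7, and 50.4 on the array labelled Sohlh2 knockout 5, against 67.4 to 68.3. Kctd18 was 1098 on the array labelled Sohlh2 knockout 3-1, against 895 to 925, and Ppp2r2d was 1961 on wild-type array 6, against 2569 to 2700.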

How the results depend on the processing

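The Aox4 difference stayed positive under all 25 alternatives in both knockouts. Because Aox4 was chosen for lying above wild type without overlap, this sign was largely given by the choice and is no test. The difference was 2.13 and 2.08 with no offset and 1.13 and 1.09 with an offset at the 40th percentile (Sohlh1 and Sohlh2 knockout), as a larger offset draws dim values closer. Aox1 and Xdh passed under 0 of 25 alternatives: Xdh ranged from 0.16 (replicate block) to 0.76 in Sohlh1 knockout and from 0.46 (without wild-type array 6) to 1.00 (without wild-type array 4) in Sohlh2 knockout, and Aox1 from 0.10 (replicate block) to 0.44 in Sohlh1 knockout and from -0.13 to 0.12 in Sohlh2 knockout. Counts of probe sets that passed moved more. In Sohlh1 knockout the 600 became 343 with eBayes without trend, 991 without both arrays of high 3' to 5' ratio and 230 to 1238 with 1 array left out, the highest without the array labelled Sohlh2 knockout 1. Leaving out wild-type array 4, 5 or 6, or any of the Sohlh1 knockout arrays, took it to 374 or fewer. In Sohlh2 knockout the 445 became 293 without trend, 283 with only the 2 groups compared, 747 without both high-ratio arrays, 767 without all 3 doubted arrays (Sohlh1 knockout 2 and 5, Sohlh2 knockout 1), and 202 to 503 with 1 array left out, 287 or fewer without wild-type array 4, 5 or 6 or Sohlh2 knockout array 3-1, 4 or 5. Between knockouts the 0 became 9 without the arrays labelled Sohlh1 knockout 5 and Sohlh2 knockout 1, and 11 without all 3. Of the 5 genes most like Aox4, 2 were shared when those 2 arrays were left out. The cause of these shifts was not tested. Replicate numbers showed no pairing, in a check that kept the labels of the 2 arrays that went against them. Deviations of log2 signal from group means correlated at -0.117 to 0.101 between same-numbered arrays of different groups. Between differently numbered arrays they correlated at -0.26 to 0.379. With the replicate block Aox4 stood at 1.61 and 1.50, 463 and 401 probe sets passed, and Nampt and Bzw1 had limma adjusted p = 0.0853 and 0.0837 in Sohlh1 knockout. Dim signal limits Aox3, Xdh and wild-type Aox4.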

Other observations

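Correlations between the members over arrays are given as descriptions. Over the 12 arrays, Pearson's r of log2 signal was 0.41 between Aox4 and Aox1, 0.49 between Aox4 and Xdh and 0.35 between Aox1 and Xdh, values that include the differences between genotypes. Over the 8 knockout arrays alone r was 0.36 for Aox4 and Aox1, -0.59 for Aox4 and Xdh and -0.07 for Aox1 and Xdh. Aox3, which was near the bottom of the range, had r = -0.26 with Aox4, -0.29 with Aox1 and -0.31 with Xdh over 12 arrays, and 0.02, -0.14 and 0.25 over 8. The arrays are few and share strain and processing. Over the 10 arrays whose targeted genes matched the label, Id4 was the gene most like Aox4 (r = 0.974), followed by Lonrf2 (0.964) and Tcf24 (0.960), while over the 8 knockout arrays Id4 and Aox4 had r = -0.014.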
